A study of Mus musculus with 6 samples.

Results

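The genes described here are 10 members of the BCL2 family, found by gene name in a deposited expression table of 28154 genes. They are 3 survival genes (Bcl2, Bcl2l1 and Mcl1), 2 effector genes (Bax and Bak1) and 5 BH3-only genes (Bcl2l11, Bid, Bad, Bbc3 and Pmaip1). Each was found once, and all 10 passed the filter on low counts. The libraries came from 4T1, a line derived from a mouse mammary tumour that metastasises when put back into BALB/c mice. Of 6 RNA libraries, 3 came from cells treated with corticosterone, the main glucocorticoid of rodents, and 3 from control cells of the same line. No genotype difference, second agent or vehicle is named for either group, and neither dose nor duration of treatment is stated in the sources used here. The labels do not call the replicates separate cultures, so each p-value reflects only how these libraries scatter, which may be technical, and a single tumour line stands for the tissue.

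Proteins of the BCL2 family decide whether the mitochondrial outer membrane stays closed. BAX and BAK open it and release cytochrome c, which starts the caspases. BCL-2, BCL-XL (from Bcl2l1) and MCL-1 hold the effectors and the BH3-only proteins in check, while BH3-only proteins such as BIM (from Bcl2l11), BID, BAD, PUMA (from Bbc3) and NOXA (from Pmaip1) carry stress signals to them. Glucocorticoids are known to kill lymphoid cells through BIM and PUMA, and are known to protect several epithelial cell types, in which induction of Bcl2l1 has been described. Levels of transcripts, measured here, are separate from levels and activity of the proteins.

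Bcl2l1 rose with corticosterone, the 1 member of 10 that passed the test over all 6 libraries, where 2.82% of 17283 tested genes did so (quasi-likelihood test of edgeR; p adjusted over all tested genes by the Benjamini-Hochberg method, BH, under 0.05). Bcl2l1 stood 1.36-fold above controls (95% interval 1.26 to 1.48). Bcl2 had a log2 fold change of -0.39 and Bcl2l11 one of -0.23, neither of which passed, and the effectors Bax and Bak1 lay within 0.11 of 0 on that scale. Members whose 3 corticosterone libraries did not overlap the 3 control libraries were Bcl2l1, Bcl2, Mcl1 and Bcl2l11, which is 4 of 10, against 22.2% of all tested genes. The median log2 fold change of the 10 was -0.03, and that of all tested genes was 9.62e-05.

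Sequencing depth was between 62.2 and 66.2 M counts per library. Along the leading principal component of log2 CPM (29.0% of variance), corticosterone replicate 2 (9.17) lay nearer the controls (-33.8 to -21.5) than did corticosterone replicates 1 and 3 (29.6 and 38.5), so counts of calls are also given without it. The response to the hormone was present in all treated libraries: Per1 had 62.6, 71.1 and 65.3 CPM with corticosterone, against 18.4, 20.5 and 20.1 CPM in controls, and Tsc22d3 (GILZ) and Fkbp5, both known receptor targets, were 2.94-fold and 1.70-fold higher. Nr3c1, which encodes the receptor itself, differed by 0.27 (log2) and did not pass (edgeR, BH adjusted p = 0.391). It passed without corticosterone replicate 2 (0.42, edgeR, BH adjusted p = 0.00949), where 20.5% of all tested genes passed. Without corticosterone replicate 3 Nr3c1 was at 0.15 and did not pass (edgeR, BH adjusted p = 0.763). All 6 epithelial markers were detected, with a summed level of 3612 to 4316 CPM with corticosterone and 3926 to 4135 CPM in controls. The sum of 6 leukocyte markers was 45.8 to 55.2 CPM with corticosterone and 51.5 to 53.2 CPM in controls, mostly from Cd68 and Itgam, and that of 6 endothelial and fibroblast markers was 4.19 to 6.54 CPM and 5.35 to 6.47 CPM in these groups. No marker was at 0 in all libraries, but Cd3e, Kdr and Cdh5 had between 0 and 18 counts in each. In bulk RNA, fewer cells with a transcript and less of it per cell cannot be told apart.

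Bcl2l1 lies on chromosome 2 from 152780668 to 152831728 on the minus strand, and Bcl2 on chromosome 1 from 106538178 to 106714274, also on the minus strand (GRCm38, coordinates of the deposited table, identical to GENCODE release M21 for all 10 members). The stretches upstream of both genes are shown because these 2 survival genes had the largest differences of the members in opposite directions. RefSeq (GRCm38.p6) gives Bcl2l1 3 start sites with a window each and Bcl2 1 start site. Of the Bcl2l1 windows 2 overlap annotated exons, so only the one outside the gene is printed. Each is 250 bases that end at the base before the start site, 5′ to 3′ on the gene's strand.
Bcl2l1, chr2:152831729-152831978, minus strand: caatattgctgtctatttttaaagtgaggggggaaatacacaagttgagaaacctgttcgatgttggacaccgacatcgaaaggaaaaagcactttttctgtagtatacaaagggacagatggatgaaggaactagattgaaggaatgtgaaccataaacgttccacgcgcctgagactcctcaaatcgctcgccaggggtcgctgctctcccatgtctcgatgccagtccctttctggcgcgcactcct
Bcl2, chr1:106714291-106714540, minus strand: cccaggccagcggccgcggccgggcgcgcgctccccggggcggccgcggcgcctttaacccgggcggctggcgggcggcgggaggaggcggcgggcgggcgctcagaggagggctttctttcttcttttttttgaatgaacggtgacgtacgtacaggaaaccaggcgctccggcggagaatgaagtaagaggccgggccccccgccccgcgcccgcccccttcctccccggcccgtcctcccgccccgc
Matches to a searched motif would stand in capitals, and neither stretch has any. The Bcl2l1 stretch is 47.6% G and C and the Bcl2 stretch 74.8%, with a median of 52.4% over 32851 such windows of all genes. Pmaip1 was left out of the search. Over 15 windows of the other 9 members, the glucocorticoid response element half-site AGAACA was found in 0, against 16.1% of all windows. The E-box CACGTG was found in 2 of the 15, at Bax and Bbc3, against 6.02% of all windows. The STAT palindrome TTCNNNGAA was found in 0, against 7.02% of all windows. The 15 member windows had 47.6% to 81.6% G and C, most of them above the median of all windows. The shares were not matched for composition, so they do not show whether the members lack or hold a motif beyond it. Both strands were searched, no member window held more than 1 of the 3 motifs, and no match says only that these letters are not in these windows.

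**Figure D1:**
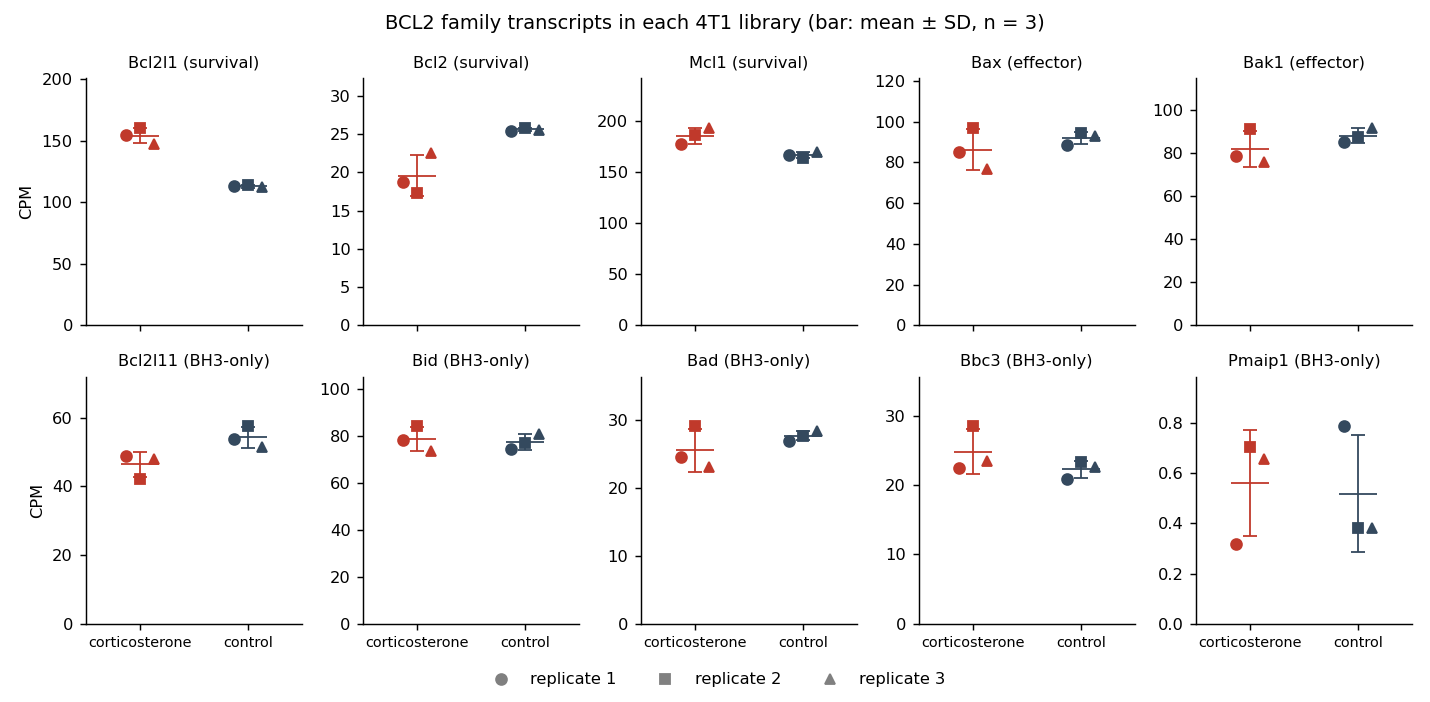
CPM (counts scaled to library depth) of each of the 10 members in the 3 corticosterone and 3 control libraries, with symbols for replicates 1, 2 and 3 and bars for mean ± SD. Bcl2l1 and Mcl1 lie above the controls in all 3 treated libraries and Bcl2 and Bcl2l11 below them, while the other 6 panels overlap.

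Among the survival genes, Bcl2l1 encodes BCL-XL, which binds and restrains BAX, BAK and BH3-only proteins. Its level was 154, 160 and 148 CPM in corticosterone replicates 1, 2 and 3, against 113, 114 and 112 CPM in control replicates 1, 2 and 3. All treated libraries lay above all controls, by a gap many times the spread among controls. The means were 154 ± 6.42 CPM with corticosterone and 113 ± 1.02 CPM in controls (SD, n = 3). On the log2 scale that is a rise of 0.45 (SE 0.052; edgeR, BH adjusted p = 0.0046). In FPKM, which also divides by a length for each gene, Bcl2l1 had 30.0, 30.5 and 28.8 with corticosterone and 21.8, 22.0 and 21.4 in controls. By size of change it was 145th of the 234 genes that rose, whose median log2 fold change was 0.53, and by p-value 73rd of the 487 that changed. The call was lost without control replicate 2 (edgeR, BH adjusted p = 0.0517, log2 fold change 0.45) and held without each of the other 5 libraries. No other annotated gene overlaps Bcl2l1, and its 9 annotated transcripts, which include the long and short splice forms with opposed roles, are not separated by counts per gene.

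BCL-2, the founding survival protein of the family, is encoded by Bcl2. Its level was 18.7, 17.4 and 22.6 CPM in corticosterone replicates 1, 2 and 3, against 25.5, 25.8 and 25.6 CPM in control replicates 1, 2 and 3. The treated libraries were all lower, and they were more scattered than the controls, with corticosterone replicate 3 closest to them. The means were 19.6 ± 2.69 CPM with corticosterone and 25.6 ± 0.189 CPM in controls (SD, n = 3). The log2 fold change of -0.39 (SE 0.103, 95% interval -0.63 to -0.16) did not pass over all genes (edgeR, BH adjusted p = 0.0961). Of 15 alternatives, Bcl2 passed in 4 and did not pass in 11. It passed in DESeq2 (adjusted p = 0.0129). In edgeR it passed without corticosterone replicate 2 (adjusted p = 0.0397), though at a smaller log2 fold change of -0.31. It passed in edgeR without corticosterone replicate 3 as well (adjusted p = 0.044), at -0.50. It also passed with the GC and length offsets described below. DESeq2 called 7.48% of all tested genes, and edgeR without corticosterone replicate 2 called 20.5%. Under the replicate block Bcl2 did not pass (edgeR, BH adjusted p = 0.153). D630008O14Rik overlaps Bcl2 on the opposite strand, strandedness is not stated in the sources used here, and Gm37053 and Mir3473f overlap it on its own strand, so the counts of Bcl2 are uncertain to that extent.

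Mcl1 encodes a short-lived survival protein that many carcinoma cells depend on. It had 177, 186 and 193 CPM in corticosterone replicates 1, 2 and 3, against 167, 164 and 170 CPM in control replicates 1, 2 and 3. Every treated library lay above every control, but the lowest of them exceeded the highest control by little. The log2 fold change of 0.15 (SE 0.052, 95% interval 0.03 to 0.27) did not pass (edgeR, BH adjusted p = 0.183), and it passed under none of the 15 alternatives run, which gave 0.13 to 0.18.

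**Figure D2:**
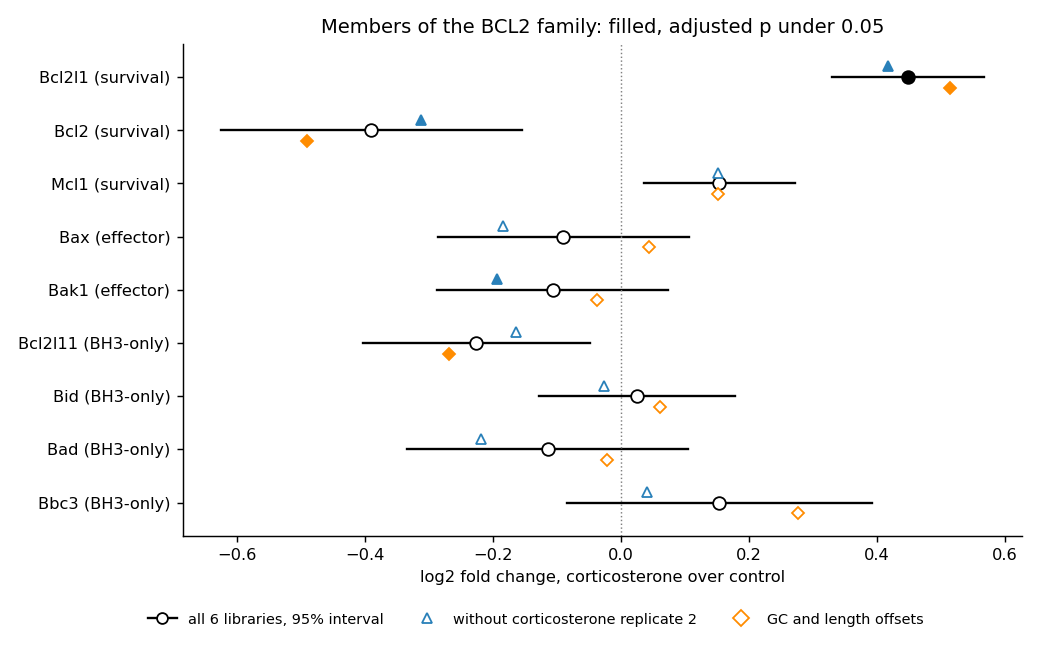
Log2 fold change of 9 members, corticosterone over control, with circles and 95% intervals for all 6 libraries, triangles without corticosterone replicate 2 and diamonds with GC and length offsets. Filled symbols have an adjusted p under 0.05, and Pmaip1 is left out for its low counts. Bcl2l1 is filled in all 3 analyses, Bcl2 in both alternatives, Bak1 without corticosterone replicate 2 and Bcl2l11 with the offsets.

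The effector genes encode the proteins that form the pores. Bax had 85.3, 97.1 and 76.7 CPM in corticosterone replicates 1, 2 and 3, against 88.5, 94.3 and 93.2 CPM in control replicates 1, 2 and 3. Corticosterone replicate 2 was the highest of all 6 libraries and corticosterone replicates 1 and 3 the lowest, so the groups overlapped. The log2 fold change was -0.09 (SE 0.086, 95% interval -0.29 to 0.11; edgeR, BH adjusted p = 0.639).

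Bak1 overlapped between the groups too. It had 78.4, 91.1 and 75.5 CPM in corticosterone replicates 1, 2 and 3, against 84.9, 87.5 and 91.6 CPM in control replicates 1, 2 and 3. As for Bax, corticosterone replicates 1 and 3 were the lowest libraries and corticosterone replicate 2 lay apart from them, here just below control replicate 3. The log2 fold change was -0.11 (SE 0.079, 95% interval -0.29 to 0.07; edgeR, BH adjusted p = 0.539). Without corticosterone replicate 2 it was -0.19 and passed (edgeR, BH adjusted p = 0.0249), and that of Bax was -0.18 (edgeR, BH adjusted p = 0.0502). Both intervals over all libraries exclude a change of the size seen for Bcl2l1 in either direction. Bak1 lies within Ggnbp1 on the opposite strand, and Bax overlaps Gm45808 on its own strand, so reads in the shared stretches are uncertain.

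BIM, the product of Bcl2l11, binds every survival protein of the family and can activate BAX and BAK. Bcl2l11 had 48.8, 42.2 and 48.0 CPM in corticosterone replicates 1, 2 and 3, against 53.8, 57.5 and 51.5 CPM in control replicates 1, 2 and 3. The groups did not overlap, and corticosterone replicate 2 was the lowest library. The log2 fold change was -0.23 (SE 0.077, 95% interval -0.40 to -0.05), which did not pass (edgeR, BH adjusted p = 0.188). In lymphoid cells glucocorticoid is known to raise this transcript. The interval here lay below 0, but it is not adjusted over the tested genes. Bcl2l11 passed in 1 of 15 alternatives, so no fall is called.

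The other BH3-only genes did not pass, and their groups overlapped. Bid, whose product is cut by caspase-8 to link death receptors to mitochondria, had 78.3, 84.1 and 73.6 CPM in corticosterone replicates 1, 2 and 3, against 74.3, 76.9 and 80.9 CPM in control replicates 1, 2 and 3. Bad, whose product is silenced by survival kinases, had 24.5, 29.0 and 23.0 CPM with corticosterone and 27.0, 27.7 and 28.3 CPM in controls. Bbc3, a p53 target that encodes PUMA, had 22.4, 28.5 and 23.4 CPM with corticosterone and 20.9, 23.4 and 22.6 CPM in controls. In all 3 genes corticosterone replicate 2 was the highest of the 6 libraries. The log2 fold changes were 0.02 (SE 0.067) for Bid, -0.11 (SE 0.096) for Bad and 0.15 (SE 0.104) for Bbc3, with BH adjusted p (edgeR) between 0.505 and 0.891. Single treated libraries set much of these sizes: without corticosterone replicate 2, Bbc3 was at 0.04 and Bad at -0.22 (edgeR, BH adjusted p = 0.779 and 0.0616), and without corticosterone replicate 3 Bad was at -0.04. Pmaip1, which encodes NOXA, a partner of MCL-1, was close to silent, with 20, 46 and 43 counts in corticosterone replicates 1, 2 and 3 and 50, 25 and 25 counts in control replicates 1, 2 and 3. Its 95% interval of -0.90 to 1.13 on the log2 scale is the widest of the members, and its replicates scattered by a coefficient of variation of 37.7% with corticosterone and 45.1% in controls. Bid and Bad overlap genes on the opposite strand, and Bid also Gm44260 on its own.

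**Figure D3:**
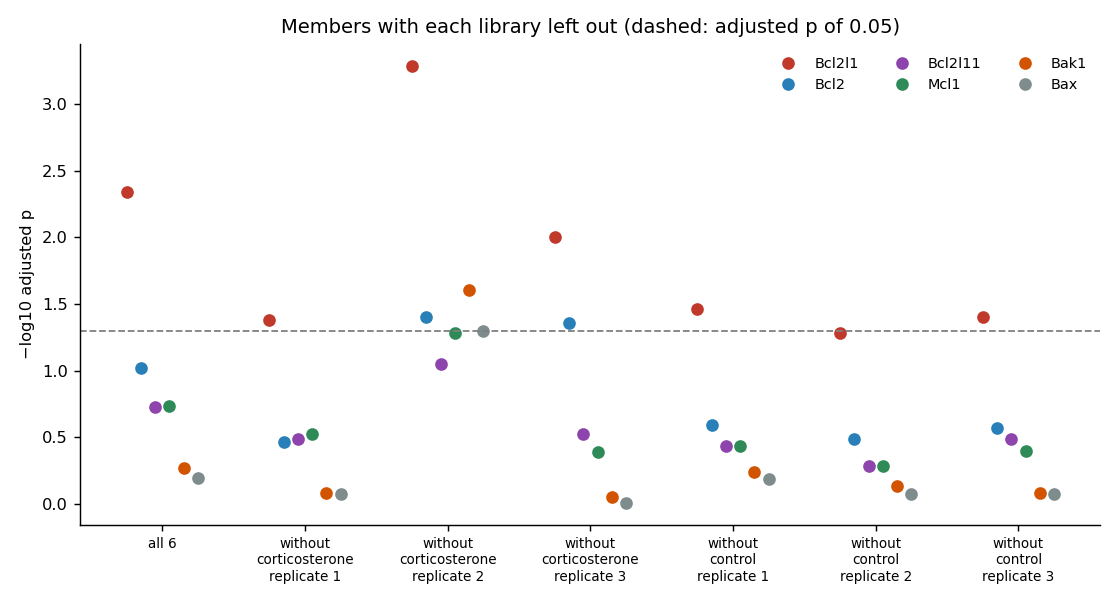
Size of the adjusted p, as −log10, of 6 members in edgeR with all 6 libraries and with each library left out, where points above the dashed line have an adjusted p under 0.05. Bcl2l1 lies above the line except without control replicate 2, at an adjusted p of 0.0517, and Bak1 lies above it only without corticosterone replicate 2.

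Members differ in transcript composition. The longest annotated transcript of Bax is 63.5% G and C over 1100 bases and that of Bbc3 65.2% over 1814 bases, while that of Bcl2 is 46.3% over 7191 bases. With offsets for GC content and length fitted per library, an alternative chosen after seeing the data, Bcl2l1 rose by 0.51 and Bcl2 (-0.49) and Bcl2l11 (-0.27) fell (edgeR, BH adjusted p = 0.000322, 0.00525 and 0.023). Under it Bax was at 0.04, Bak1 at -0.04 and Bad at -0.02, closer to 0 than without offsets, while Bbc3 moved away from 0, to 0.28 (edgeR, BH adjusted p = 0.0544). Mcl1 stood at 0.15 and Bid at 0.06, and none of these 6 members passed. The 3 calls in 10 compare with 6.61% of all tested genes under these offsets. Without corticosterone replicate 2, 3 members passed (Bcl2l1 higher, Bcl2 and Bak1 lower), but so did 20.5% of all tested genes. DESeq2 called 2 members, Bcl2l1 and Bcl2, and 7.48% of all tested genes.

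Levels between genes are given in FPKM, and their order depends on the length by which each gene was divided. That length was not always that of the longest annotated transcript. Bcl2l1 (2568 bases) and Bak1 (2387 bases) had means of 113 and 88.0 CPM in controls, but 21.7 and 32.3 FPKM. In controls the order was Bax (51.6 ± 1.64 FPKM, SD, n = 3), Mcl1 (43.1 ± 0.631), Bak1 (32.3 ± 1.10), Bcl2l1 (21.7 ± 0.276), Bid (19.3 ± 0.743), Bad (9.54 ± 0.195), Bbc3 (9.26 ± 0.498), Bcl2l11 (5.97 ± 0.349), Bcl2 (2.47 ± 0.0215) and Pmaip1 (0.164 ± 0.0759). Of these neighbours, only Bad and Bbc3 overlapped in their libraries. With corticosterone Bax (48.6 ± 5.04 FPKM) overlapped Mcl1 (48.2 ± 2.22 FPKM), Bak1 (30.1 ± 2.58 FPKM) overlapped Bcl2l1 (29.8 ± 0.852 FPKM), and Bbc3 stood above Bad with overlap. Bcl2, the family's founding member, was thus the least abundant of the 3 survival transcripts in both groups.

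The FPKM ratio of Bcl2l1 to Bcl2 did not overlap between the groups. That follows from the 2 genes, each without overlap and in opposite directions. It was 16.4, 18.4 and 13.1 in corticosterone replicates 1, 2 and 3, against 8.84, 8.80 and 8.72 in control replicates 1, 2 and 3. The ratio of Bcl2l1 to Bcl2l11 was 5.53, 6.65 and 5.38 with corticosterone, against 3.68, 3.47 and 3.80 in controls, again without overlap for the same reason. In FPKM, Mcl1 exceeded Bcl2l1 by 1.54, 1.56 and 1.76 times with corticosterone and by 1.99, 1.93 and 2.04 times in controls. Bcl2l1 made up 38.4%, 38.3% and 35.3% of the summed FPKM of the 3 survival genes with corticosterone, against 32.3%, 32.9% and 31.7% in controls, and Bcl2 2.34%, 2.08% and 2.70% with corticosterone, against 3.65%, 3.73% and 3.64% in controls.

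Summed over classes, the survival genes had 78.3, 79.5 and 81.7 FPKM in corticosterone replicates 1, 2 and 3, against 67.6, 66.9 and 67.6 FPKM in control replicates 1, 2 and 3. The effector sum overlapped, with 77.5, 86.7 and 71.7 FPKM with corticosterone and 81.0, 85.1 and 85.4 FPKM in controls, as did the BH3-only sum, with means of 44.1 ± 2.58 FPKM and 44.2 ± 1.20 FPKM in these groups (SD, n = 3). The ratio of the survival sum to the effector sum was 1.01, 0.918 and 1.14 with corticosterone, against 0.834, 0.786 and 0.791 in controls. These sums and ratios are given as descriptions with no test, since they are built from members already described. Their sizes also depend on the length by which FPKM divides each gene.

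**Figure D4:**
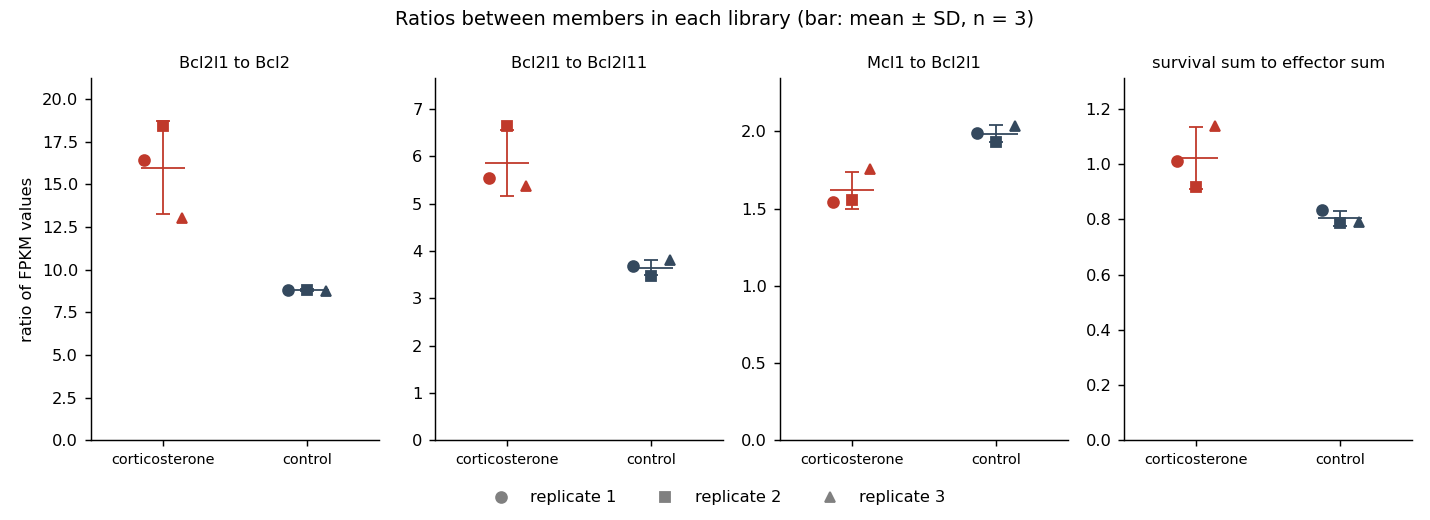
Ratios of FPKM values between members in each corticosterone and control library, with symbols for replicates and bars for mean ± SD. The ratio of Bcl2l1 to Bcl2 lies between 13.1 and 18.4 with corticosterone and between 8.72 and 8.84 in controls, and the other 3 ratios are also without overlap. For Bcl2l1 to Bcl2 and to Bcl2l11 this follows from the values of each gene.

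Other genes of the pathway were read from the same fit, in 3 lists of 67 genes, of which 64 were tested. Of these 4 changed, with 2 higher and 2 lower, beside the 2.82% of all tested genes. Of 23 tested genes of caspases, their inhibitors and mitochondrial partners, 21 did not pass, among them Birc3 (0.20) and Birc6 (0.28), which encode inhibitors of apoptosis. For Birc6 the value rested on single libraries: it was 0.47 and passed without corticosterone replicate 2 (edgeR, BH adjusted p = 0.00405), was 0.12 without corticosterone replicate 3, and was 0.10 with GC and length offsets, where it did not pass. The median log2 fold change of that list was -0.0016.

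Among 28 tested regulators and partners of the family, Trib3 and Myc rose and 26 genes did not pass, with a median of 0.07. Trib3, a stress-induced pseudokinase that acts downstream of CHOP, had 125, 142 and 124 CPM in corticosterone replicates 1, 2 and 3, against 80.7, 85.8 and 94.6 CPM in control replicates 1, 2 and 3 (log2 fold change 0.58, SE 0.079; edgeR, BH adjusted p = 0.0086). Myc, which can sensitise cells to apoptosis, had 403, 422 and 400 CPM with corticosterone and 313, 324 and 324 CPM in controls (log2 fold change 0.35, SE 0.049; edgeR, BH adjusted p = 0.0101). The call of Trib3 was lost without control replicate 2 (edgeR, BH adjusted p = 0.0805) at a log2 fold change of 0.57, and that of Myc without each control library and without corticosterone replicate 1 (highest adjusted p = 0.0909), at log2 fold changes of 0.34 to 0.36. E2f1 (-0.29) and Trp53 (0.40), whose products can raise BH3-only genes, did not pass (edgeR, BH adjusted p = 0.0549 and 0.0837). Both passed in DESeq2 (adjusted p = 0.00187 and 0.00457), which called 7.48% of all tested genes. Both also passed with GC and length offsets (edgeR, BH adjusted p = 0.0204 and 0.0182), which called 6.61%. Without corticosterone replicate 2, where 20.5% passed, both did too. Under the replicate block neither passed (edgeR, BH adjusted p = 0.153 and 0.12). Trp53 was uneven in controls, with 154, 164 and 153 CPM in corticosterone replicates 1, 2 and 3, against 108, 109 and 140 CPM in control replicates 1, 2 and 3.

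Of 13 other BCL2 relatives tested, edgeR called 0 and DESeq2 called 0, and in edgeR 2 had a raw, unadjusted p under 0.05. The 2 were Bmf, a BH3-only gene, with 6.12, 6.50 and 4.44 CPM in corticosterone replicates 1, 2 and 3, against 8.77, 8.43 and 6.91 CPM in control replicates 1, 2 and 3 (log2 fold change -0.50, edgeR, BH adjusted p = 0.181), and Bok, an effector relative (-0.21, adjusted p = 0.227). Bnip3 and Bnip3l, mitophagy receptors, had log2 fold changes of 0.13 and 0.08. Without corticosterone replicate 2, Bmf (-0.61), Bok (-0.29) and Bnip3 (0.18) passed (edgeR, BH adjusted p = 0.0364, 0.00859 and 0.024), while with GC and length offsets Bok was at -0.09 and did not pass (edgeR, BH adjusted p = 0.321). The near-identical copies Bcl2a1a, Bcl2a1b and Bcl2a1d had 28 to 101 counts per library, and their separate values are uncertain. Bcl2l10, Bcl2l14 and, among the regulators, Trp73 had too few counts to be tested. Without corticosterone replicate 2, 19 of the 64 genes passed, 11 higher and 8 lower, against the 20.5% of all tested genes in that comparison.

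**Figure D5:**
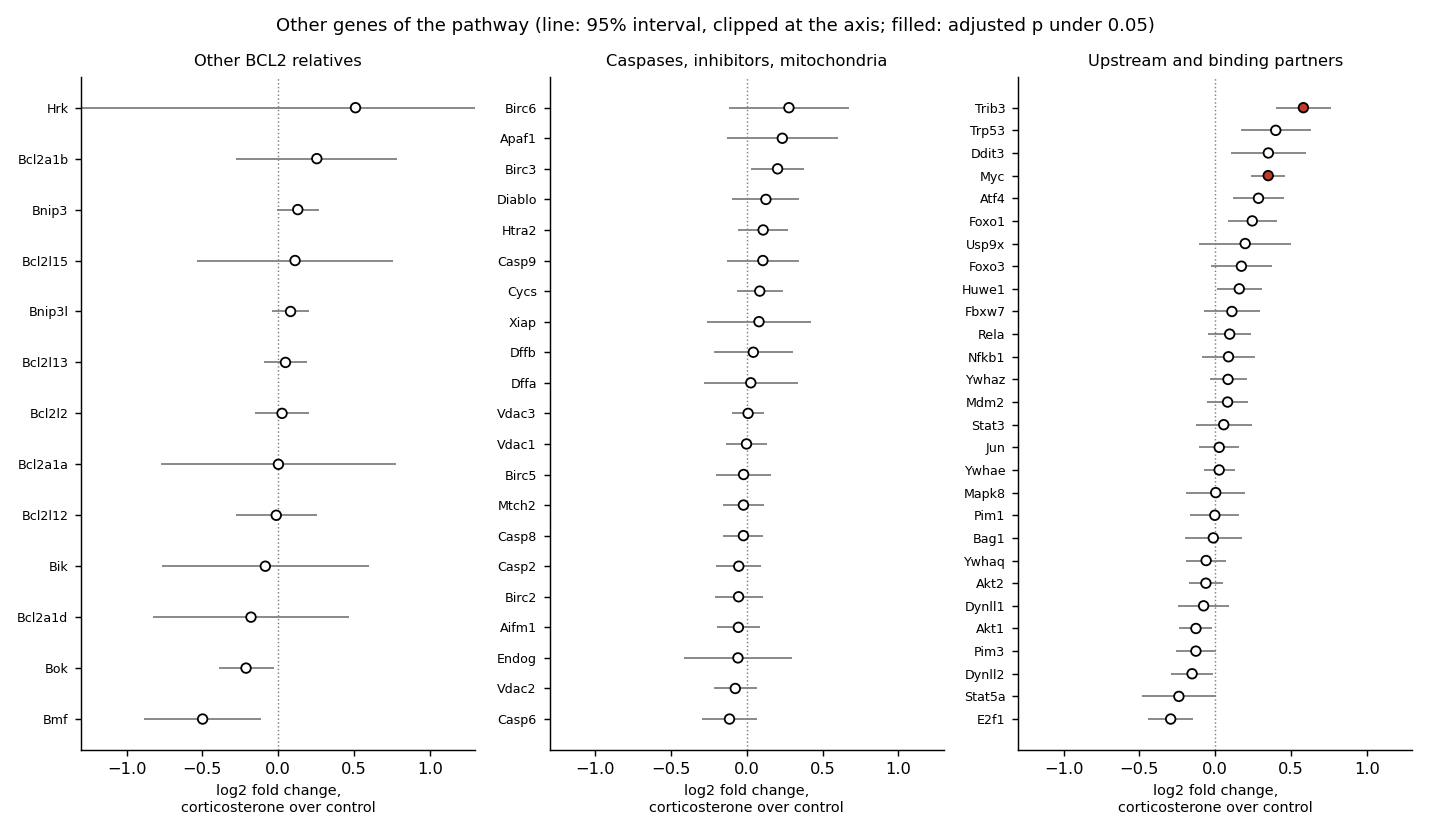
Log2 fold changes with 95% intervals of 62 of the 64 tested genes in the 3 lists of other BCL2 relatives, of caspases with their inhibitors and mitochondrial partners, and of regulators. Filled points have an adjusted p under 0.05 and are Trib3 and Myc.

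The 3 genes whose pattern over the 6 libraries was most like that of Bcl2l1, of 10780 with a mean of at least 5 CPM, were Snhg5, a small nucleolar RNA host gene, Plk3, a stress-responsive kinase, and Fads3, a member of the fatty acid desaturase family. Likeness is the root mean square distance of log2 CPM centred on each gene's mean, which was 0.032, 0.034 and 0.035 on the log2 scale. Their own log2 fold changes were 0.45, 0.43 and 0.44.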

How the data were processed

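RNA sequencing of 6 4T1 libraries, 3 corticosterone and 3 control, was analysed from 1 deposited table. Groups come from the treatment labels and replicate numbers from the titles. Counts per gene were deposited by the authors as whole numbers, not normalized, per the file headers. FPKM values were deposited beside them by the authors, per the file headers. Counter, aligner and strandedness: none is named in the sources used here. The submitters' processing notes name the build GRCh38, although all 28154 identifiers are mouse (ENSMUSG), and 28086 of them are in GENCODE M21 (GRCm38).

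Counts were scaled by TMM, filtered with filterByExpr (minimum count 10, minimum total 15), leaving 17283 genes, and tested with the quasi-likelihood method of edgeR 4.0.16 under R 4.3.3 (1 term, treatment). The Benjamini-Hochberg adjustment (BH) ran over every tested gene, at a threshold of 0.05, and intervals are 95% from the same fit. CPM are TMM-scaled. The pipeline was tested on simulated data. Alternatives were DESeq2 1.42.0, limma 3.58.1 on log2(FPKM + 1) or log2(FPKM + 0.1), keeping genes that reach 1 FPKM in 3 libraries, or all genes, other filters and scaling, a replicate block, other thresholds and each library left out. Offsets for GC content and transcript length (99.9% of tested genes have both) were added after seeing the data. Named were all 10 members, and from each pathway list the changed genes and otherwise up to 4 by lowest p; others were chosen after their values were seen. Some genes these rules would name are not reported here. Members and lists were chosen with earlier results of these data known. No value column was left unmapped (0).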

Additional observations from a re-analysis of the deposited data

How the results depend on the processing

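Of the members, Bcl2l1 kept its direction in all 15 refits and its call in 14, with log2 fold changes of 0.42 to 0.51. The number of members that changed, 1 in the main analysis, was 2 in DESeq2, 3 with GC and length offsets (chosen after seeing the data), 2 at an adjusted p under 0.1 and 0 to 3 with 1 library left out. Pathway genes that changed, 4 in the main analysis, numbered 9 in DESeq2, 10 with the offsets, 1 with the replicate block, 7 at an adjusted p under 0.1, 1 at an adjusted p under 0.01 and 0 to 19 with 1 library left out. Over all genes, 487 changed, against 1293 in DESeq2, 1143 with the offsets, 237 with the replicate block, 211 with no low count filter, 260 in limma with no filter, 889 at an adjusted p under 0.1, 144 at an adjusted p under 0.01 and 88 to 3670 with 1 library left out. In each of these leave-out ranges the highest count came without corticosterone replicate 2 and the lowest without control replicate 2, and the cause of these shifts was not tested. The Bax log2 fold change turned to 0.044 with the offsets. With 1 library left out, the Bid log2 fold change lay between -0.027 and 0.073 and that of Pmaip1 between -0.083 and 0.55, both changing sign. Under the replicate block the call of Myc was lost and those of Bcl2l1 and Trib3 held. Same-numbered libraries shared little (Pearson r of deviations over genes of 0.011, 0.038 and -0.088). With 3 libraries per group, these values cannot exclude that the numbers mark a pairing. Pmaip1 had the lowest depth of the members, 20 to 50 counts per library, and whether depth or scatter between libraries limits it was not tested.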
